A study of Mus musculus with 22 samples.

Results

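RNA of white adipose tissue (WAT) taken 6 h after mice received thyroid hormone (TH) was set against WAT of mice given propylthiouracil (PTU), a drug that blocks hormone synthesis in the thyroid gland. The comparison holds 4 libraries per group, 8 of the 22 libraries of the series. Its members are the genes with a mean normalised count above 10 over the 12 WAT libraries, 17928 of the 47628 genes in the WAT table. The other 4 WAT libraries, taken 24 h after TH, entered the fit but are not compared here. The animals were wild-type male mice on the C57BL/6J background, aged 8 weeks. Mice of the PTU group are labelled hypothyroid after 2 weeks of PTU. Mice of the other group are labelled as treated with TH for 6 h. Their labels do not mention PTU, whereas the study's overview of the WAT data gives 2 weeks of PTU in the food followed by 1 injection of T3 and T4. The fat depot and the time of day at sampling are not given in the sources used here. The comparison asks which genes change within hours when hormone reaches hypothyroid fat.

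The active hormone T3 enters the nucleus and binds the receptors TRα and TRβ, encoded by Thra and Thrb. They sit on DNA as dimers with the retinoid X receptors (RXR). Without hormone they hold corepressors such as NCOR1, and with hormone they take up coactivators. Much of the hormone in blood is the precursor T4, which the deiodinase DIO2 turns into T3 inside cells. In fat, TH is known to act on lipid synthesis, lipid breakdown, heat production and the response to catecholamines. Genes that change first can themselves encode transcription regulators, so direct and secondary responses mix with time.

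The libraries held 18.4 to 24.4 M counts in the PTU group and 17.3 to 26.96 M at 6 h, and mitochondrial genes took 17.1% to 20.3% of them. All 12 adipocyte markers examined, such as Adipoq and Plin1, were detected in both groups, with summed normalised counts of 549299 to 718288 under PTU and 518148 to 664889 at 6 h. The libraries also held other tissue in unequal amounts. The 16 skeletal muscle markers summed to 2648 to 606363 in the PTU group, where replicates 4 and 1 (248071) stood above the others, and to 1173 to 109259 at 6 h, where replicate 3 stood above the others. The 14 stratified epithelium markers summed to 512 to 1202 under PTU and to 314 to 5842 at 6 h, again highest in replicate 3. The sum of the adipose progenitor and fibroblast markers was 39147 to 81429 under PTU and 29512 to 41448 at 6 h. In bulk tissue, fewer cells of a type and less RNA per cell cannot be told apart. Circadian clock genes summed to 12488 to 14142 under PTU and to 21874 to 28274 at 6 h, without overlap, and since the hour of sampling is not known, time of day and treatment cannot be told apart.

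**Figure D1:**
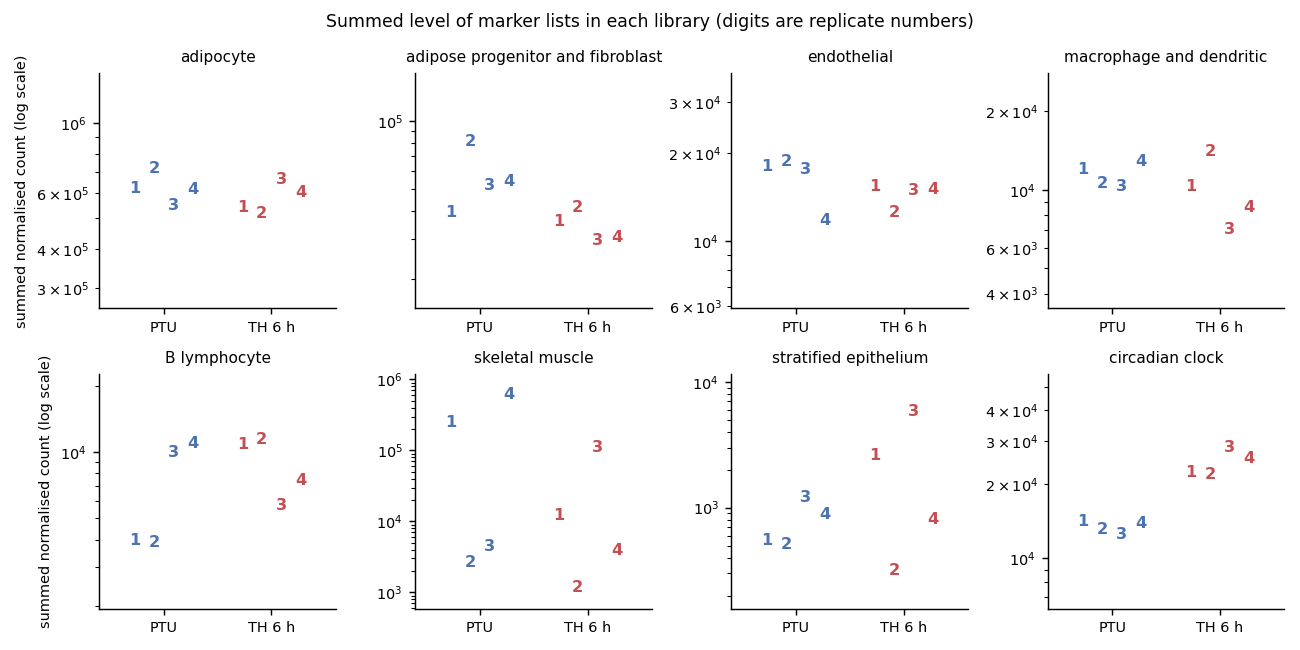
Summed normalised counts (log scale) of 8 marker lists in each library, PTU in blue and 6 h after TH in red; each digit is a replicate number. The clock sums of the groups do not overlap, whereas skeletal muscle and stratified epithelium vary between single libraries, up to 606363 in PTU replicate 4 and 5842 in 6 h replicate 3.

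A weak relation to transcript length ran through the comparison. Among 11587 protein-coding genes with a mean normalised count above 50, the median log2 change rose from -0.19 for the 278 genes with under 1 kb of exons to 0.07 for the 674 genes with over 12 kb. The slope of each library on length did not separate the groups, with -0.08 to 0.05 per doubling of length under PTU and 0.02 to 0.11 at 6 h. The calls below were therefore also made with each library's slope as a covariate, a choice made after the data had been seen. Where it ended the call of a gene that held in all fits leaving out 1 library, this is said beside the gene.

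**Figure D2:**
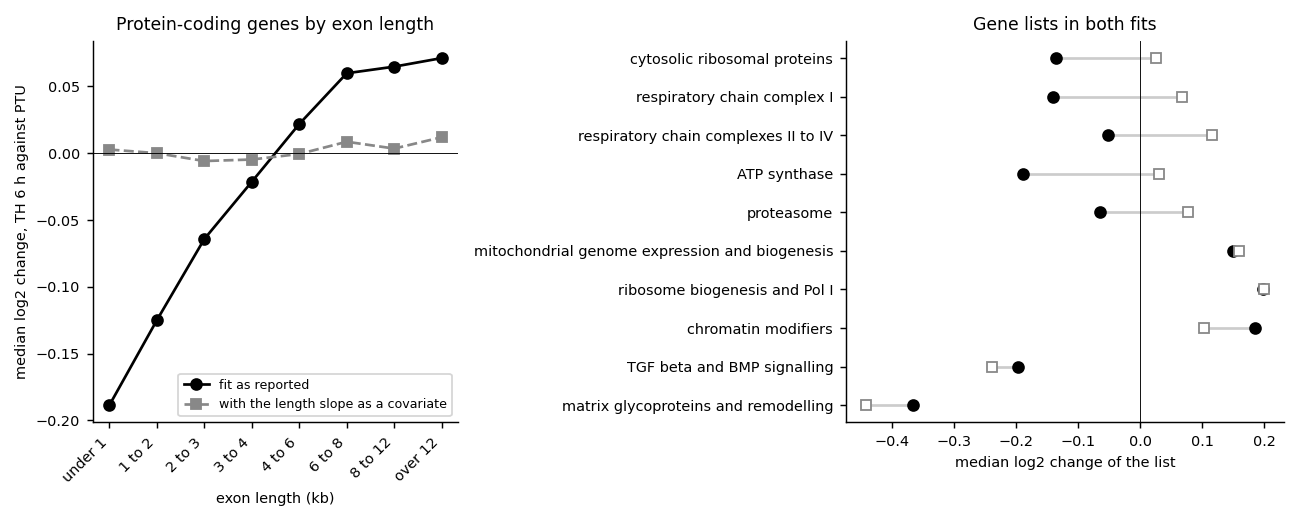
Left, median log2 change (6 h against PTU) of protein-coding genes by exon length in kb, in the fit as reported (circles) and with the length slope of each library as a covariate (squares). Right, the median log2 change of 10 gene lists in both fits; ribosome biogenesis stays at 0.20, whereas complex I moves from -0.14 to 0.07.

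At 6 h, 1296 genes (7.23% of those tested) differed from PTU at an adjusted p under 0.05, of which 749 (4.18%) were upregulated and 547 (3.05%) downregulated. Of these calls, 365 had a log2 change beyond 1 in either direction, 210 up and 155 down. The groups of 4 did not overlap for 13.9% of the genes tested, with 7.85% higher and 6.07% lower at 6 h. Calls depended on single libraries: 685 genes were called without PTU replicate 2, 684 without 6 h replicate 3 and 738 without 6 h replicate 4, and 1898 without PTU replicate 1. Without PTU replicate 4 and 6 h replicate 3, the libraries with most muscle or epithelium, 676 genes were called. A gene is said below to have kept its call when it was called in all 12 fits that each left out 1 WAT library. Of the 93 called genes named below that did not keep their call, only Npr1, Timm9, Taf1d, Fbl, Fbln1, Mmp11, Acvr1, Fgfr2 and Asah1, 9 in all, stayed called with length as a covariate. The members of 65 pathway lists, 2258 distinct genes, included 239 called genes (10.6%, against 7.23% of all genes tested), 146 upregulated and 93 downregulated. These members were chosen with earlier results of these data known, so a larger share than that of all genes is no measure of enrichment. The labels do not say that the replicates of a group are separate animals, so the p-values measure the spread between these libraries. Values per gene are normalised counts, with 4 libraries per group, and a log2 change is given ± its standard error.

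Among called genes with a mean normalised count above 50 and groups that did not overlap, the largest rises were found in genes of hormone activation, transcription and lipid handling. Dio2 (chr12:90724552-90738438, minus strand, GRCm38), which makes T3 from T4, had normalised counts of 6.72, 5.99, 17.1 and 8.61 in the PTU libraries and 348, 302, 496 and 465 at 6 h. Every 6 h value lay far above every PTU value, a log2 change of 5.33 ± 0.79 (adjusted p = 0.00184). Foxo6, a forkhead transcription factor of the insulin pathway, was nearly absent under PTU with 6.72, 1.20, 1.80 and 2.46 and reached 70.5, 95.7, 175 and 165 at 6 h (5.28 ± 0.69, adjusted p = 0.000775). Aspg, which encodes an asparaginase, rose from between 9.61 and 20.8 to between 167 and 352 (3.98 ± 0.36, adjusted p = 4.24e-05). A gene model without a name, RP23-339B16.2, rose from between 3.69 and 13.2 to between 102 and 215 (3.98 ± 0.36, adjusted p = 4.25e-05). The other large rises were Hr, Lpin3, Acot11 and Ppargc1a, described below, the clock output genes Dbp (4.68 ± 0.42) and Ciart (3.48 ± 0.43), and Ucp1 (4.80 ± 0.90), the uncoupling protein of brown fat. All of these kept their call and stayed called with length as a covariate. Exons of Dio2 overlap those of Gm26512 on the other strand and exons of Dbp those of Sphk2, and the strand setting of the counting was not stated.

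**Figure D3:**
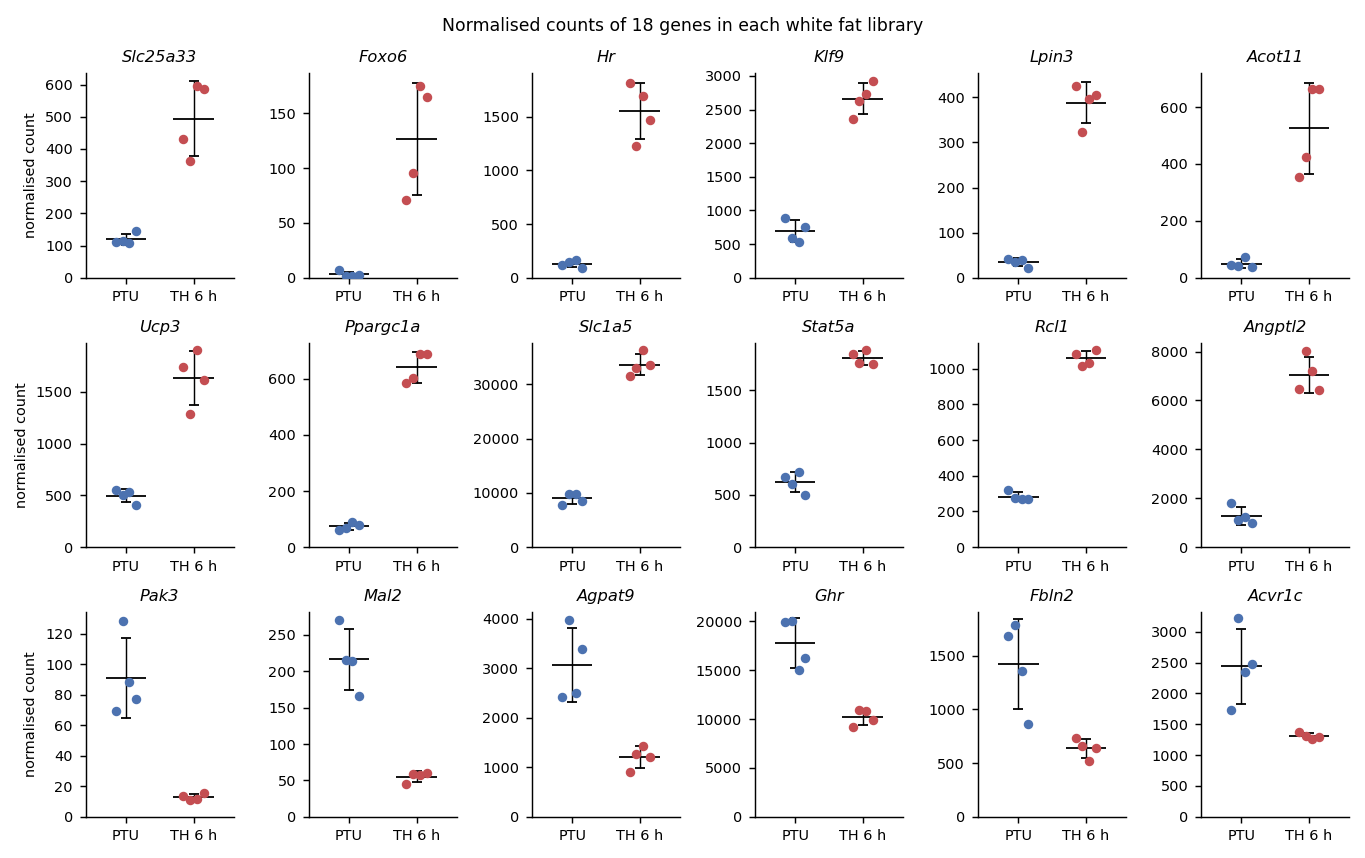
Normalised counts of 18 genes in each library, PTU in blue and 6 h after TH in red; horizontal lines are means of the 4 libraries and bars are 1 SD. In each panel the 2 groups do not overlap, with 12 genes higher and 6 lower at 6 h.

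Outside the clock, the deepest fall by the same rule was that of Pak3 (chrX:143518591-143797796), which encodes a kinase downstream of small GTPases. Its normalised counts were 69.2, 128, 88.4 and 77.5 under PTU and 13.4, 11.3, 11.8 and 15.6 at 6 h. The 6 h libraries were low and close together, a log2 change of -2.79 ± 0.26 (adjusted p = 4.7e-05). Mal2, a membrane trafficking protein, had 269.96, 215, 214 and 166 under PTU and 44.7, 58.7, 56.8 and 60.8 at 6 h (-1.96 ± 0.21, adjusted p = 0.000179). Arhgap20, which switches off a class of small GTPases, fell from between 103 and 204 to between 24.6 and 48.3 (-2.11 ± 0.26, adjusted p = 0.000561). Lhfpl2, a membrane protein of the tetraspan group, fell from between 809.9 and 3175 to between 299 and 602 (-2.32 ± 0.37, adjusted p = 0.00269), with PTU replicate 1 nearest to the 6 h values. The small GTPase Rasl11b (-2.04 ± 0.41), the homeobox factor Lhx8 (-2.06 ± 0.37) and Casq2, the calcium store protein of heart and muscle (-2.16 ± 0.43), fell too. Casq2 had 194, 57.5, 49.6 and 130 under PTU and 25.7, 15.3, 33.2 and 23.0 at 6 h. It was highest in PTU replicates 1 and 4 and in 6 h replicate 3, the libraries with most muscle markers. With the summed muscle markers as a covariate, its adjusted p was 0.0041. Inhbb, the βB subunit of activins, had 319, 1306, 1335 and 773 under PTU and 286, 172, 177 and 169.99 at 6 h (-2.22 ± 0.48, adjusted p = 0.0168). PTU replicate 1 lay near the 6 h libraries for Inhbb, and the call was lost without PTU replicate 2, 6 h replicate 3 or 6 h replicate 4 (adjusted p up to 0.0559). Fam150b, a ligand of the receptor kinases ALK and LTK, fell (-1.89 ± 0.43) and lost its call without PTU replicate 2 or without 6 h replicate 2, 3 or 4 (adjusted p up to 0.0689). The calls of Casq2, Lhx8, Rasl11b, Inhbb and Fam150b did not hold with length as a covariate (adjusted p of 0.102, 0.0502, 0.0563, 0.0693 and 0.162). The clock genes Npas2 (-3.99 ± 0.33), Arntl (-2.40 ± 0.23) and Nfil3 (-2.39 ± 0.22) fell as well.

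Promoters were searched for the sites that bear on these genes. RefSeq windows from 250 bases before to 50 after the start (GRCm38.p6) were matched for 527 of the 749 upregulated and 364 of the 547 downregulated genes. The full TR and RXR site is known as DR4, the half-site AGGTCA repeated in the same direction after 4 spacer bases. Searched on both strands for these exact letters, it was in 0 of the 13997 windows of tested genes. It was in only 5 of the 32851 windows of all promoters searched, too rare to compare changed genes with others. The study instead found DR4 elements with a motif matrix and counted sites far beyond these windows. The half-site alone was in 12.9% of the windows of tested genes, 13.1% of those of upregulated and 13.4% of those of downregulated genes. The E-box CACGTG, which clock and MYC family factors read, was in 9.47%, 12.3% and 9.11%, and the cyclic AMP response element TGACGTCA in 2.78%, 2.12% and 2.17%. The stretches below, from 40 bases before the motif to at most 40 after it, belong to upregulated genes described in the text; capitals mark the motif or its reverse complement. The first 4 show half-sites near starts of Stat5a and Ucp3, the fifth the cyclic AMP response element of Dio2 and the last the E-box of Acot11. They lie 38 to 148 bases before the RefSeq start of their window, which can differ from the end of the annotated gene. The Stat5a and Acot11 stretches lie inside the annotated genes, and the Dio2 start lies outside the span given above. A match describes these letters only.
Stat5a, chr11:100859570-100859655, plus strand: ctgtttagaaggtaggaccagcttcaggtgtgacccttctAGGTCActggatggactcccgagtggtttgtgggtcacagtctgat
Stat5a, chr11:100860400-100860483, plus strand: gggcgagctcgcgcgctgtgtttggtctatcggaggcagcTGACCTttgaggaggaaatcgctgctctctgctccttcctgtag
Ucp3, chr7:100472802-100472887, plus strand: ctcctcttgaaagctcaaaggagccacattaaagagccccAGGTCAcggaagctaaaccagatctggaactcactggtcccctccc
Ucp3, chr7:100472907-100472990, plus strand: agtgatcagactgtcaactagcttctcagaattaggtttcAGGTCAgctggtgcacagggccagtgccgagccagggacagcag
Dio2, chr12:90739086-90739173, minus strand: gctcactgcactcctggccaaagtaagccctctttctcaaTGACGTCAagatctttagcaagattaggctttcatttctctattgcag
Acot11, chr4:106799940-106800025, minus strand: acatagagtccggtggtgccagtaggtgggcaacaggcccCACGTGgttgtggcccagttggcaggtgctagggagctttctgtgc

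Among 15 tested hormone receptors and partners, 3 were upregulated and 1 was downregulated, a larger share than the 7.23% of all genes tested, but most of these calls depended on single libraries. Thra, for TRα, had 1748, 2115, 2123 and 1565 under PTU and 1299, 1232, 1429.8 and 1293 at 6 h, so that all 6 h libraries lay below all PTU libraries (-0.52 ± 0.14, adjusted p = 0.0422). The call was lost without PTU replicate 2 or 3, without any single 6 h library, and without 24 h replicate 3 or 4 (adjusted p up to 0.112). Thrb, for TRβ, had 331, 383, 320.3 and 269 under PTU and 456, 416, 516 and 429 at 6 h. Its groups also did not overlap, in the other direction, but it was not called (0.48 ± 0.14, adjusted p = 0.0548). Among its partners, Rxrb rose from between 232 and 312 to between 378 and 427 (0.57 ± 0.10, adjusted p = 0.00604), whereas Rxra (0.53 ± 0.15, adjusted p = 0.0501) and Rxrg (0.09 ± 0.15, adjusted p = 0.739) were not called. The coactivators Ncoa3 (0.50 ± 0.13, adjusted p = 0.0374) and Med1 (0.36 ± 0.09, adjusted p = 0.0355) were called, with groups that overlapped for Ncoa3, whose exons overlap those of Sulf2 on the other strand. The corepressor Ncor1 was at 0.12 ± 0.10 (adjusted p = 0.447). Log2 changes of further members were -0.12 for Ncoa1, 0.24 for Ncoa2, -0.02 for Hdac3, 0.17 for Tbl1xr1, 0.09 for Gps2 and -0.78 for Crym, none called. Not every member is listed here. Of the 15 changes, 11 were positive and 4 negative. For the receptors and partners, the number called ran from 1 when PTU replicate 2 was left out to 6 when PTU replicate 1 was left out, only Rxrb kept its call, and none stayed called with length as a covariate (adjusted p of 0.0502 for Rxrb and 0.0799 for Thra). Exons of Thra overlap those of the clock gene Nr1d1 on the other strand, whose counts were 2528 to 3288 under PTU and 3456 to 4811 at 6 h (0.59 ± 0.19, adjusted p = 0.0815).

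Hormone transport and deiodination changed through Dio2 alone among the 6 tested genes. The transporters Slc16a10 (-0.21), Slc7a5 (0.52), Slc7a8 (-0.56) and Slc3a2 (-0.14) were not called, with no adjusted p under 0.107. The other deiodinases Dio1 and Dio3, the transporters Slco1a4 and Slco1c1 and the carrier Ttr lay under the count minimum. Of 15 textbook targets, 4 were upregulated and none downregulated. Hr, a nuclear corepressor first known from hair growth, had 118, 149.6, 167 and 91.0 under PTU and 1821, 1228, 1692 and 1475 at 6 h, a change of 11.8-fold with wide separation (3.56 ± 0.19, adjusted p = 1.01e-06). Klf9, a Krüppel-like transcription factor, had 888, 594, 531 and 759.9 under PTU and 2366, 2626, 2737 and 2921 at 6 h (1.94 ± 0.17, adjusted p = 4.09e-05). Gpd2, the mitochondrial enzyme of the glycerol phosphate shuttle, rose from between 1022 and 1752 to between 2367 and 3719 (1.24 ± 0.20, adjusted p = 0.00247). The fourth was Ppargc1a, and all 4 kept their call and stayed called with length as a covariate. The lipogenic targets did not move as a group. Thrsp had 78963, 32888, 29419 and 25794 under PTU and 57400.3, 59136, 81784 and 101867 at 6 h, with PTU replicate 1 inside the 6 h range (0.85 ± 0.35, adjusted p = 0.155). Fasn, the fatty acid synthase, was at -0.19 ± 0.35 (adjusted p = 0.76) and Me1, malic enzyme, at -0.38 ± 0.24 (adjusted p = 0.337). The remaining log2 changes were 0.01 for Cpt1a, -0.82 for Pck1, 0.80 for Pdk4, 0.89 for Hcn2, 0.40 for Atp2a2, -0.78 for Angptl4 and 0.70 for Acacb, and -2.86 for Atp2a1, the calcium pump of fast muscle, which had 352 to 56440.3 under PTU and 99.7 to 10797 at 6 h.

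**Figure D4:**
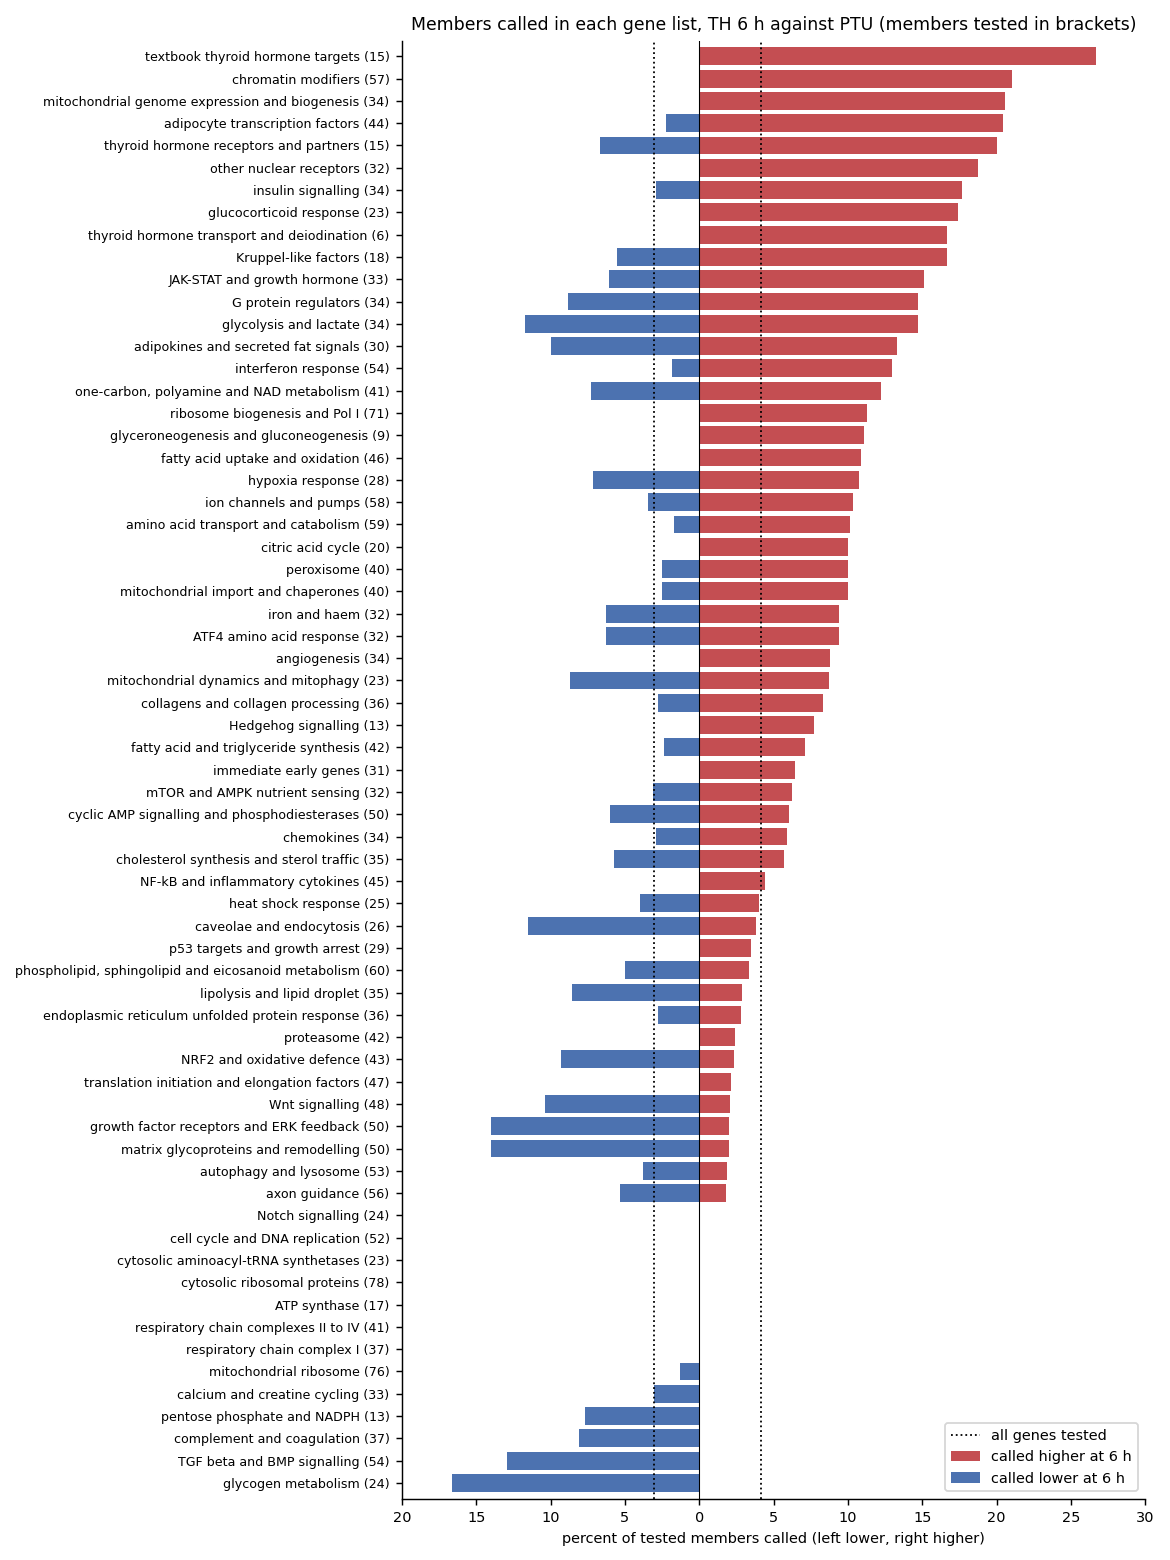
Percent of tested members called in each of 65 gene lists, upregulated to the right in red and downregulated to the left in blue, with the number tested in brackets. Dotted lines mark the shares over all genes tested, 4.18% and 3.05%; chromatin modifiers and mitochondrial biogenesis reach past 20% on the right with no fall, whereas TGF beta signalling has only falls.

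Regulators of mitochondrial biogenesis rose, whereas no gene of the respiratory chain was called. Of 34 tested genes of mitochondrial genome expression and biogenesis, 7 were upregulated and none downregulated, with a median log2 change of 0.15 against -0.03 for all genes tested. Ppargc1a encodes PGC-1α, the coactivator that drives mitochondrial gene programs. It had 61.5, 68.2, 90.2 and 77.5 under PTU and 583, 602, 687 and 689 at 6 h, tight within each group (3.10 ± 0.18, adjusted p = 1.24e-06). Its partner receptor Esrrg, which had 34.6, 12.0, 33.4 and 35.7 under PTU and 97.3, 85.3, 86.8 and 108 at 6 h, rose by 1.70 ± 0.36 (adjusted p = 0.0157). Esrra, of the same receptor family, rose from between 291 and 376 to between 429.5 and 606 (0.63 ± 0.14, adjusted p = 0.0167) and lost its call without PTU replicate 2 or 6 h replicate 3 (adjusted p up to 0.0559), and its exons overlap those of Trmt112 on the other strand. The other upregulated members were the coactivators Ppargc1b (0.95) and Pprc1 (0.61), the RNA polymerase Polrmt (0.48) and the DNA polymerase Polg (0.41). For this list, the number called ran from 2 when 6 h replicate 3 was left out to 9 when PTU replicate 1 was left out. Only Ppargc1a and Esrrg kept their call, and only Ppargc1a stayed called with length as a covariate (adjusted p = 0.0953 for Esrrg and 0.0605 for Esrra).

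Complex I (37 tested genes), complexes II to IV (41) and ATP synthase (17) held no called gene, with median log2 changes of -0.14, -0.05 and -0.19. Among the most abundant members the groups overlapped. Cox4i1 of complex IV had 9105 to 10962 under PTU and 8019.9 to 11278 at 6 h (-0.05 ± 0.12), and Atp5b of ATP synthase 23835 to 28059 and 21984 to 27284 (-0.05 ± 0.12). With length as a covariate, 31 of the 37 complex I genes had a positive change in place of 1, and the medians became 0.07, 0.12 and 0.03. The 26 tested mitochondrially encoded genes also held no call (median -0.03). Of 76 mitochondrial ribosomal genes, only Mrps6 was called, at -0.87 ± 0.22, and did not keep its call (adjusted p up to 0.0944 without 6 h replicate 2).

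Single mitochondrial enzymes and carriers were called. Idh3a, a catalytic subunit of the isocitrate dehydrogenase of the citric acid cycle, had 4693, 4675, 4441 and 4675 under PTU and 7681, 6948, 7738 and 8901 at 6 h (0.76 ± 0.11, adjusted p = 0.0014). The PTU values lay close to each other and below the whole 6 h range. Slc25a33, a mitochondrial carrier of pyrimidine nucleotides, had 109.5, 114, 109 and 145 under PTU and 432, 363, 595 and 587 at 6 h (2.05 ± 0.18, adjusted p = 3.42e-05), with exons that overlap Gm13068 on the other strand. Timm10, a chaperone of protein import, rose from between 194 and 273 to between 303 and 398 (0.58 ± 0.13, adjusted p = 0.0158). Mief2, which recruits the fission machinery, rose from between 172 and 198 to between 273 and 355 (0.76 ± 0.11, adjusted p = 0.00186). Nnt, named for a mitochondrial transhydrogenase, had 436, 352, 291 and 368 under PTU and 196, 199, 219.6 and 202 at 6 h, lower in every 6 h library (-0.82 ± 0.12, adjusted p = 0.00191). RNA counts of Nnt do not show whether working protein is made in mice of this background. These 5 genes kept their call and stayed called with length as a covariate. Nnt was the only called gene among 13 of the pentose phosphate and NADPH list. Of 20 citric acid cycle genes, Aco1 (0.51) was called beside Idh3a. Of 40 import genes, Timm9 (0.48), Timm8a1 (0.49), Afg3l2 (0.50) and Immp1l (-0.54) were called beside Timm10. Of 23 genes of dynamics and mitophagy, Mtfp1 (0.71), Pink1 (-0.45) and Fundc2 (-0.56) were called beside Mief2. None of these 8 kept its call.

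In lipid metabolism, calls fell on steps of triglyceride assembly, lipolysis control and acyl-CoA handling rather than on whole pathways. Of 42 genes of fatty acid and triglyceride synthesis, 3 were upregulated and 1 was downregulated, and the median log2 change was 0.09. The share called (9.52%) was near the 7.23% of all genes tested. Lpin3, a phosphatidate phosphatase of the lipin family, had 42.3, 34.7, 38.8 and 22.1 under PTU and 426, 323, 397 and 406 at 6 h, 11.1-fold higher (3.47 ± 0.20, adjusted p = 1.24e-06). Both acyltransferases that start glycerolipid synthesis at the endoplasmic reticulum changed, in opposite directions. Gpat4 had 2183, 2696, 2452 and 2233 under PTU and 4616, 4871, 6219 and 5099 at 6 h (1.12 ± 0.16, adjusted p = 0.00134). Agpat9, the older symbol of Gpat3, had 2410.4, 3972, 2493 and 3388 under PTU and 908, 1275, 1419 and 1212 at 6 h (-1.35 ± 0.18, adjusted p = 0.000736). Mlxipl, for the carbohydrate sensor ChREBP, was the fourth call with 1.27 ± 0.34 and was lost without PTU replicate 2 (adjusted p = 0.11). For this list, the number called ran from 3 when PTU replicate 2 was left out to 10 when PTU replicate 1 was left out.

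Of 35 lipolysis and lipid droplet genes, 1 rose and 3 fell. Adora1, the adenosine receptor that restrains lipolysis, had 1559, 1136, 1375 and 1062 under PTU and 2801, 2832, 3125 and 3428 at 6 h, with all 6 h values above all PTU values (1.25 ± 0.14, adjusted p = 0.000316). G0s2, which inhibits the triglyceride lipase ATGL, had 2349.9, 7560.2, 6946 and 5407 under PTU and 1804, 1305, 1615 and 1351 at 6 h (-1.87 ± 0.33, adjusted p = 0.00558). PTU replicate 1 was lower than the other PTU libraries for G0s2 but still above the 6 h group. Gnai1, an inhibitory G protein subunit, fell from between 2864 and 5491 to between 1684 and 2128 (-0.99 ± 0.19, adjusted p = 0.00831). Npr1, a natriuretic peptide receptor, was called at -0.51 ± 0.13 with groups that overlapped and was lost without PTU replicate 2 (adjusted p = 0.11). Exons of Adora1 overlap Mybph, a muscle gene on the other strand. The call of Gnai1 did not hold with length as a covariate (adjusted p = 0.0698).

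Of 46 genes of fatty acid uptake and oxidation, 5 were upregulated and none downregulated, with a median log2 change of 0.10. Acot11, an acyl-CoA thioesterase known from brown fat, had 44.2, 41.9, 71.3 and 39.4 under PTU and 353, 424, 663 and 662 at 6 h (3.40 ± 0.37, adjusted p = 0.000189). Ucp3, an uncoupling protein homologue of muscle and fat whose promoter is shown above, had 549.5, 503, 531 and 409 under PTU and 1746, 1284, 1901 and 1614 at 6 h, so that the lowest 6 h library exceeded the highest PTU library more than 2-fold (1.71 ± 0.16, adjusted p = 5.22e-05). Ppara, the receptor that governs fatty acid oxidation, rose from between 24.6 and 74.0 to between 168 and 237 (2.08 ± 0.43, adjusted p = 0.0125). Acaa1a, a peroxisomal thiolase, rose by 0.58 ± 0.12 (adjusted p = 0.0111), and Ucp2 by 0.54 ± 0.14, a call lost without PTU replicate 2 (adjusted p = 0.0851). The calls of Ppara and Acaa1a did not hold with length as a covariate (adjusted p of 0.0753 and 0.0569). Among 40 peroxisome genes, 4 rose and 1 fell. Nudt7, which cleaves coenzyme A in peroxisomes, rose from between 926 and 1139.7 to between 1717 and 2628 (1.01 ± 0.15, adjusted p = 0.00165), and Abcd3 (0.67), Pex26 (0.55) and Abcd2 (-0.42) did not keep their call. Exons of Acot11 overlap Fam151a and those of Acaa1a overlap Myd88, on the other strand. Of 35 genes of cholesterol synthesis and sterol traffic, Npc1, the lysosomal cholesterol exporter (0.58 ± 0.12, adjusted p = 0.0124), and the lipoprotein receptor Scarb1 (0.44) rose, and Npc2 (-0.37) and Pmvk (-0.73) fell. Only Npc1 of these 4 kept its call, and with length as a covariate none did (adjusted p = 0.0703 for Npc1). Of 60 phospholipid, sphingolipid and eicosanoid genes, 2 rose and 3 fell, a share (8.33%) near the 7.23% of all genes tested. The sphingosine phosphate lyase Sgpl1 (0.69 ± 0.14, adjusted p = 0.0136, and 0.0886 with length as a covariate) and the cyclooxygenase Ptgs1 (-0.84 ± 0.18, adjusted p = 0.0144) kept their call, whereas Pcyt1a (0.42), Lpcat3 (-0.44) and Asah1 (-0.41) did not.

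Genes of glucose use were called at control points. Of 34 glycolysis and lactate genes, 5 were upregulated and 4 downregulated, with a median of -0.11. Pfkfb1, which sets the level of the glycolytic activator fructose 2,6-bisphosphate, had 593, 739.9, 525 and 567 under PTU and 1248, 1356, 1583 and 1565 at 6 h (1.25 ± 0.12, adjusted p = 8.75e-05). Hk2, the insulin-responsive hexokinase, had 1841, 1054, 1205 and 1294 under PTU and 2444, 3346, 4507 and 3887 at 6 h (1.39 ± 0.19, adjusted p = 0.00126). In both, all 4 libraries at 6 h exceeded all PTU libraries. Pdp2, a phosphatase that activates pyruvate dehydrogenase, rose from between 92.2 and 216 to between 497 and 595 (1.94 ± 0.28, adjusted p = 0.00173), whereas its relative Pdp1 fell (-0.66 ± 0.14) and lost its call without 6 h replicate 4 (adjusted p = 0.052). Pfkfb4 rose from between 133 and 430.4 to between 662 and 719 (1.55 ± 0.28, adjusted p = 0.00568, and 0.0555 with length as a covariate). Slc16a1, the lactate and pyruvate transporter MCT1, had 1088, 1268, 1344 and 1172 under PTU and 587, 535, 689 and 696 at 6 h, a clear separation downward (-0.96 ± 0.15, adjusted p = 0.00278). All 4 called genes of 24 in glycogen metabolism fell. Ppp1r3d, which brings a phosphatase to glycogen, had 408, 561, 417 and 487 under PTU and 227, 209.9, 211 and 255 at 6 h (-1.05 ± 0.18, adjusted p = 0.00366). The others were Stbd1 (-1.27), Gyg (-0.52) and Ugp2 (-0.47). For glycogen metabolism, the number called ran from 1 when 6 h replicate 2 was left out to 6 when PTU replicate 3 was left out, and only Ppp1r3d kept its call or stayed called with length as a covariate. For glycolysis and lactate, it ran from 6 when PTU replicate 2 was left out to 9 when PTU replicate 1 was left out. Exons of Pfkfb1 overlap Apex2 on the other strand.

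Of 59 genes of amino acid transport and catabolism, 6 were upregulated, transporters of glutamine and glutamate among them, and 1 was downregulated (median 0.03). Slc1a5, the glutamine and neutral amino acid transporter ASCT2 (chr7:16781340-16798274), had 7803, 9741, 9773 and 8586 under PTU and 31553, 33027, 36233 and 33620.4 at 6 h. Its means were 8976 ± 957 and 33608 ± 1954 (SD, n = 4), a 3.74-fold rise of a strongly expressed gene (1.90 ± 0.11, adjusted p = 1.24e-06). Slc1a1, a glutamate transporter, rose from between 7.38 and 24.0 to between 70.0 and 159 (2.76 ± 0.36, adjusted p = 0.000777). In mitochondria, the alanine aminotransferase Gpt2 had 1447 to 2477 under PTU and 3522 to 4300.1 at 6 h (1.05 ± 0.16, adjusted p = 0.0019) and the glutamate carrier Slc25a22 1009.6 to 1751 and 2311 to 2835 (1.01 ± 0.17, adjusted p = 0.00368). Slc6a6, the taurine transporter, rose by 0.70 ± 0.14 (adjusted p = 0.0119, and 0.102 with length as a covariate). Glul, glutamine synthetase, was called at 1.07 ± 0.26 with PTU replicate 1 inside the range of the other group, and the arginine transporter Slc7a2 at -1.36 ± 0.33; neither kept its call. For this list, the number called ran from 5 when 6 h replicate 4 was left out to 9 when PTU replicate 1 was left out. Of 32 genes of the ATF4 amino acid response, 3 rose and 2 fell. Asparagine synthetase Asns had 2202, 2355, 1723 and 1584 under PTU and 1084, 1180.05, 1299 and 1455 at 6 h (-0.65 ± 0.14, adjusted p = 0.0144), and Cth, which makes cysteine, fell from between 356 and 494 to between 228 and 301 (-0.73 ± 0.14, adjusted p = 0.00904). Gpt2, Cebpg (0.62 ± 0.12, adjusted p = 0.00927) and Cebpb (0.79, not kept) rose. With the summed stratified epithelium markers as a covariate, the adjusted p of Asns was 0.0555. The calls of Asns and Cth did not hold with length as a covariate (adjusted p of 0.0961 and 0.0683). None of the 23 cytosolic aminoacyl-tRNA synthetases, which often move with ATF4, was called (median 0.04).

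Of 41 genes of one-carbon, polyamine and NAD metabolism, 5 rose and 3 fell. Paox, which breaks down polyamines, had 352, 328, 337 and 296 under PTU and 651, 588, 730.4 and 670.1 at 6 h (1.01 ± 0.12, adjusted p = 0.000374), with exons that overlap Echs1 on the other strand. The related Ahcyl1 (0.65 ± 0.11, adjusted p = 0.00472) and Ahcyl2 (-0.60 ± 0.12, adjusted p = 0.0104) went in opposite directions. Slc40a1, the iron exporter ferroportin, had 121, 65.8, 85.7 and 91.0 under PTU and 518, 272, 281 and 363 at 6 h (1.97 ± 0.28, adjusted p = 0.00133). It was the only one of 5 called iron and haem genes of 32 to keep its call, the others being Aco1, Slc11a2 (0.45), Heph (-0.59) and Hfe (-0.51). Over the whole family of solute carriers, 26 of 231 tested members (11.3%) rose and 6 (2.60%) fell, against 15 and 4 with length as a covariate. Slc35g1 had 74.9, 83.8, 105 and 92.2 under PTU and 285, 316, 350.2 and 328 at 6 h (1.84 ± 0.15, adjusted p = 1.97e-05), and Slc35e4 rose from between 40.6 and 68.2 to between 163 and 209.9 (1.85 ± 0.20, adjusted p = 0.000206).

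Of 34 tested members of insulin signalling, 6 were upregulated and 1 was downregulated (median 0.16). Besides Foxo6, Foxo1, the forkhead factor that insulin keeps out of the nucleus, had 1259, 1339.6, 1315 and 1257 under PTU and 2102, 2363, 2118 and 2359 at 6 h. Its libraries were tight within both groups (0.79 ± 0.08, adjusted p = 0.000105). Of the phosphoinositide 3-kinase subunits, the regulatory Pik3r2 rose from between 454 and 959 to between 1347 and 1493 (1.04 ± 0.22, adjusted p = 0.0136) and the catalytic Pik3cb fell from between 948 and 1419.8 to between 679 and 813 (-0.80 ± 0.14, adjusted p = 0.00487). The kinase Akt1 rose by 0.56 ± 0.11 (adjusted p = 0.0132), as did the insulin receptor Insr by 0.29 ± 0.08 and Trib1 by 1.09 ± 0.27, of which the last 2 did not keep their call. Of 32 genes of mTOR and AMPK nutrient sensing, 3 were called, a share (9.4%) near the 7.23% of all genes tested. The AMPK subunits went apart. The catalytic Prkaa1 had 908, 856, 739.9 and 885 under PTU and 1643, 1576, 1549 and 1606 at 6 h (0.91 ± 0.10, adjusted p = 0.000206), and the regulatory Prkag2 had 1231, 1167, 1151 and 837 under PTU and 764, 638, 625 and 712 at 6 h (-0.68 ± 0.12, adjusted p = 0.0055). The upstream kinase Stk11 was the third call (0.39, lost without 6 h replicate 3 at an adjusted p of 0.101). For insulin signalling, the number called ran from 5 when PTU replicate 2 was left out to 8 when PTU replicate 1 was left out. The calls of Akt1 and Pik3r2 did not hold with length as a covariate (adjusted p of 0.0905 and 0.0993). Exons of Foxo1 overlap Gm20402 on the other strand.

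In the growth hormone and JAK-STAT pathway, the receptor and the transducers moved in opposite directions. Of 33 tested members, 5 rose and 2 fell. Stat5a (chr11:100859351-100885169), a transcription factor activated by growth hormone and prolactin, had 672, 607, 722 and 502 under PTU and 1847, 1760.02, 1885 and 1748 at 6 h. The means were 626 ± 95.2 and 1809.98 ± 66.5 (SD, n = 4), a rise of 2.89-fold (1.53 ± 0.10, adjusted p = 5.22e-06). Its neighbour and relative Stat5b rose from between 645 and 985 to between 1222 and 1337 (0.64 ± 0.11, adjusted p = 0.00458), and the kinase Jak2 from between 675 and 761 to between 892 and 1049 (0.44 ± 0.09, adjusted p = 0.00932). Ghr, the growth hormone receptor, had 19895, 20055, 14969 and 16238 under PTU and 9208, 10925, 10859.9 and 9894 at 6 h, a fall in which no library of one group reached the other (-0.80 ± 0.13, adjusted p = 0.0028). Igf1, a growth hormone target, was called at -0.63 ± 0.17 but lost without 6 h replicate 1 (adjusted p = 0.119). Il6ra, the interleukin 6 receptor, rose by 0.65 ± 0.12 (adjusted p = 0.00783), and the repressor Bcl6 by 1.32 ± 0.37, lost without PTU replicate 2 (adjusted p = 0.128). For this list, the number called ran from 5 when PTU replicate 2 was left out to 9 when PTU replicate 3 was left out. The calls of Jak2 and Il6ra did not hold with length as a covariate (adjusted p of 0.0646 and 0.0569). Exons of Stat5a overlap those of Stat3 on the other strand.

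Nuclear receptors, Krüppel-like factors and adipocyte transcription factors rose more often than they fell. The shares called higher were 18.8%, 16.7% and 20.5%, and those called lower 0%, 5.56% and 2.27%. Over all genes tested the shares were 4.18% higher and 3.05% lower. Of 32 other nuclear receptors, 6 were upregulated and none downregulated, and 2 of the 6 stayed called with length as a covariate. Esr1, the oestrogen receptor α, had 486, 541, 418 and 439 under PTU and 1127, 1492, 1690.03 and 1407 at 6 h (1.60 ± 0.14, adjusted p = 4.18e-05). The rest were Ppara, Esrrg, Esrra, the clock repressor Nr1d2 (1.46 ± 0.25, adjusted p = 0.00391) and the glucocorticoid receptor Nr3c1 (0.45 ± 0.11, adjusted p = 0.0261), which did not keep its call. Of 18 Krüppel-like factors, Klf13 had 630.2, 797, 837 and 884 under PTU and 1835, 1996, 1956 and 2047 at 6 h (1.32 ± 0.11, adjusted p = 1.85e-05), and Klf15, a regulator of amino acid and lipid use, rose from between 687 and 1103 to between 1194 and 1665 (0.71 ± 0.16, adjusted p = 0.018, and 0.06 with the summed stratified epithelium markers as a covariate). The third rise was Klf9, and Klf11 fell (-0.93 ± 0.26), a call lost without PTU replicate 2 (adjusted p = 0.13). Of 44 adipocyte transcription factors, 9 rose and 1 fell. Hlf, also a clock output gene, rose from between 52.7 and 103 to between 457 and 654 (2.99 ± 0.27, adjusted p = 4.24e-05), whereas Ebf1, an early adipocyte factor, fell from between 2453 and 3104 to between 1813 and 1951 (-0.53 ± 0.10, adjusted p = 0.00659, and 0.0612 with length as a covariate). The adipogenic Cebpa (0.42) and Cebpb were called but not kept. For adipocyte transcription factors, the number called ran from 6 when PTU replicate 2 was left out to 10 when PTU replicate 1 was left out, and 5 of the 10 stayed called with length as a covariate.

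**Figure D5:**
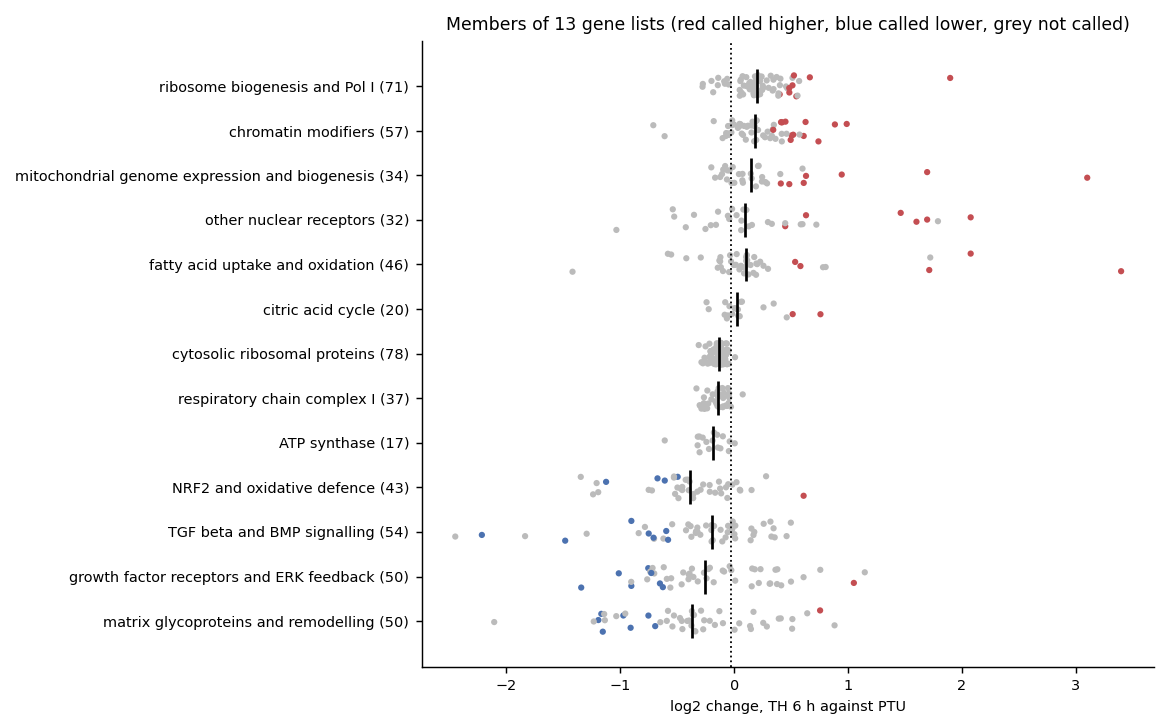
Log2 change (6 h against PTU) of every tested member of 13 gene lists, with the number tested in brackets; red members were called higher, blue lower and grey not called. Black bars mark the list medians and the dotted line the median of all genes tested (-0.03); the ribosomal proteins lie in a narrow band at -0.14 with no call, whereas ribosome biogenesis lies at 0.20 with 8.

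Chromatin modifiers held more upregulated genes than any other of the 65 pathway lists. Of 57 tested members, 12 were upregulated and none downregulated, with a median of 0.19 and 44 positive changes. Setd7, a histone lysine methyltransferase, had 1036, 927, 969 and 1287 under PTU and 1745, 2011, 2038 and 1996 at 6 h (0.89 ± 0.11, adjusted p = 0.000526). Of the histone demethylases, Kdm6b rose from between 327 and 763 to between 895 and 1065 (0.99 ± 0.20, adjusted p = 0.0123) and Kdm2a from between 1072 and 1400.4 to between 1527 and 1856 (0.51 ± 0.10, adjusted p = 0.00986). The others included the methyltransferase Dot1l (0.74), the acetyltransferase Ep300 (0.41) and the DNA methyltransferase Dnmt3a (0.50). The number called ran from 3 when PTU replicate 2 was left out to 14 when PTU replicate 3 was left out, 3 members kept their call, and with length as a covariate the median became 0.10 and only Setd7 stayed called (adjusted p of 0.0729 for Kdm2a and 0.071 for Kdm6b). Of 59 tested histone genes, 1 was called (1.69%, under the 7.23% of all genes), although 57 had a negative change (median -0.33, and -0.25 with length as a covariate). Hist1h1c, a linker histone, had 1758, 2035, 1541 and 1731 under PTU and 938, 754, 984 and 990.4 at 6 h (-0.95 ± 0.11, adjusted p = 0.000327).

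Genes of ribosome biogenesis were called, whereas the ribosomal proteins themselves were not. Of 71 genes of ribosome biogenesis and RNA polymerase I, 8 were upregulated (11.3%) and none downregulated, and 61 had a positive change (median 0.20). Rcl1, which takes part in processing of the small subunit RNA (chr19:29101375-29143929), had 319, 274, 273 and 269 under PTU and 1082, 1016, 1034 and 1102 at 6 h. Its means of 284 ± 23.6 and 1058 ± 40.3 (SD, n = 4) gave a log2 change of 1.90 ± 0.08 with the lowest adjusted p of all genes tested (2.92e-07). Mphosph10, of the small subunit processome, rose from between 288 and 323 to between 426 and 473 (0.53 ± 0.08, adjusted p = 0.00269). The nucleolar methyltransferase Nop2 rose by 0.55 ± 0.11 (adjusted p = 0.00932) and Rrp1b by 0.48 ± 0.09 (adjusted p = 0.00971, and 0.0765 with length as a covariate). The remaining rises were Myc (0.67), Rrn3 (0.51), Taf1d (0.48) and Fbl (0.40), which did not keep their call. For ribosome biogenesis, the number called ran from 4 when PTU replicate 2 was left out to 15 when PTU replicate 1 was left out, and with length as a covariate 66 changes were positive and 5 members were called. None of the 78 cytosolic ribosomal proteins was called, and 77 of them had a small negative change (median -0.14), such as Rpsa with 12364 to 15627 under PTU and 12498 to 13494 at 6 h (-0.05 ± 0.10). With length as a covariate, 58 of the 78 were positive and the median was 0.03. Of 47 translation factors, only Eif4e3, a cap-binding relative of eIF4E, was called. It had 1316, 1143, 1056 and 959 under PTU and 1835, 1847, 2052 and 2483 at 6 h (0.88 ± 0.12, adjusted p = 0.00116). Snhg5, a host gene of small nucleolar RNAs, fell from between 416 and 511 to between 208 and 235 (-1.07 ± 0.10, adjusted p = 5.87e-05).

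Of 34 angiogenesis genes, 3 secreted factors were upregulated and none downregulated, and all 3 kept their call. The share called (8.82%) was near the 7.23% of all genes tested. The other 31 were not called, and the list had 21 negative and 13 positive changes (median -0.11). Angptl2 (chr2:33216069-33247717), an angiopoietin-like adipokine linked to inflammation, had 1809.97, 1098, 1226 and 1001 under PTU and 6479, 8003, 7199 and 6427 at 6 h. It was 5.47-fold higher at 6 h (2.45 ± 0.17, adjusted p = 5.22e-06). Apln, the peptide apelin, had 13.4, 32.3, 36.1 and 19.7 under PTU and 105, 141, 167 and 213 at 6 h (2.62 ± 0.40, adjusted p = 0.0021). Vegfa, the main vascular growth factor, rose from between 2786 and 4935 to between 5518 and 7307 (0.83 ± 0.16, adjusted p = 0.0104, and 0.0564 with length as a covariate). Endothelial markers, with no call among 10, summed to 11794 to 18768 under PTU and 12536 to 15388 at 6 h. Nrg4, a neuregulin released by fat, rose from between 1019 and 1325 to between 1787 and 3017 (1.05 ± 0.22, adjusted p = 0.0155, and 0.0564 with length). Of 30 adipokines and secreted signals in all, 4 rose and 3 fell, Rbp4 (-0.65), Igf1 and Fam132a (-0.42) being the falls, none of them kept. Of 34 chemokines, Cxcl14 had 267, 81.4, 108 and 127 under PTU and 622, 516, 767 and 971 at 6 h (2.29 ± 0.38, adjusted p = 0.00357), and Cxcl12 (0.53) and the receptor Ccr1 (-1.53) did not keep their call. The share of chemokines called was also 8.82%.

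Most called genes of the extracellular matrix fell. Of 50 matrix glycoproteins and remodelling genes, 7 were downregulated and 1 upregulated, with a median of -0.37 and 36 negative changes. Fbln2, a fibulin of elastic fibres, had 1683, 1784, 1355 and 862 under PTU and 731, 659, 521 and 644 at 6 h (-1.15 ± 0.20, adjusted p = 0.00458). Fbn1, the microfibril protein whose cleaved end is the hormone asprosin, fell from between 1321 and 2391 to between 531 and 1136 (-1.17 ± 0.24, adjusted p = 0.0124). The other falls, Fbln1 (-1.19), Fbln5 (-0.97), Dcn (-0.91), Lum (-0.75) and Mmp11 (-0.69), and the rise of Hspg2 (0.76), did not keep their call. Of 36 collagens and collagen enzymes, Col5a3 fell from between 2511 and 4791 to between 1588 and 2468 (-1.02 ± 0.19, adjusted p = 0.00784), and the crosslinking enzyme Loxl1 went the other way. Loxl1 had 755, 681, 684 and 549.7 under PTU and 2159, 2417, 2278 and 2157 at 6 h, with a spread far below the change (1.75 ± 0.12, adjusted p = 5.22e-06), and Loxl3 (0.84) and Col27a1 (0.69) rose without keeping their call. The progenitor and fibroblast markers moved with this group. Their sum is given above, 9 of the 10 had negative changes (median -0.48), Fap fell from between 273 and 426 to between 134 and 188 (-0.98 ± 0.17, adjusted p = 0.00394), Dcn fell, and Thy1 rose from between 444 and 816 to between 1048 and 1483 (0.97 ± 0.17, adjusted p = 0.00487, and 0.0558 with length as a covariate). Part of this agreement lies in shared genes, since Dcn is counted in both lists and the markers Col1a1 and Col3a1 are themselves collagens. The part of progenitors and fibroblasts in the fall of matrix genes was not tested. For matrix glycoproteins, the number called ran from 2 when PTU replicate 2 was left out to 12 when PTU replicate 1 was left out. With length as a covariate 6 were called lower (median -0.44), but only 4 of the 8 original calls stayed.

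Most called ligands and receptors of growth factor pathways fell as well. All 7 called genes of 54 in TGF beta and BMP signalling were downregulated (median -0.20). Acvr1c, the receptor ALK7 of adipocytes, had 1738, 3219, 2348 and 2478 under PTU and 1368, 1316, 1259 and 1287 at 6 h (-0.90 ± 0.14, adjusted p = 0.00272). Its ligand subunit Inhbb is described above, and the activin antagonist Fst fell from between 111 and 237 to between 58.7 and 94.2 (-1.48 ± 0.28, adjusted p = 0.00762). Acvr2a fell (-0.71 ± 0.13, adjusted p = 0.00737), and Tgfb2 (-0.75), Acvr1 (-0.60) and Ltbp1 (-0.58) did not keep their call. Of 50 growth factor receptors and ERK feedback genes, 7 fell and Nrg4 rose. Fgf7, a fibroblast growth factor of stromal cells, fell from between 74.0 and 136 to between 26.8 and 59.5 (-1.34 ± 0.28, adjusted p = 0.0144) and the receptor Fgfr1 from between 2763 and 4024 to between 1789 and 2379 (-0.65 ± 0.14, adjusted p = 0.0136, and 0.055 with the 2 groups fitted alone). Fgf10 (-1.01), Fgfr2 (-0.90), the coreceptor Klb (-0.75), Igfbp6 (-0.73) and Igf1 were called but not kept. Of 48 Wnt genes, 5 fell and 1 rose, the ligands Wnt10b (-1.48) and Wnt9a (-0.95) and the receptors Fzd1 (-0.83), Fzd2 (-0.86) and Lgr4 (-0.53) against Lrp6 (0.35), and none kept its call. For TGF beta signalling, the number called ran from 3 when PTU replicate 2 was left out to 11 when PTU replicate 1 was left out, for growth factors from 3 when PTU replicate 2 was left out to 10 when PTU replicate 1 was left out and for Wnt from 0 when 6 h replicate 3 was left out to 7 when PTU replicate 1 was left out. The calls of Fst, Acvr2a and Fgf7 did not hold with length as a covariate (adjusted p of 0.0719, 0.0838 and 0.0617). Of 56 axon guidance genes, 1 rose and 3 fell, a share (7.14%) no larger than the 7.23% of all genes tested. Sema3c fell from between 638 and 1116 to between 262 and 461 (-1.33 ± 0.20, adjusted p = 0.00182), Sema6d from between 723 and 1055 to between 352 and 461 (-1.16 ± 0.15, adjusted p = 0.000616), and the receptor Plxna2 rose by 0.79 ± 0.12 (adjusted p = 0.00224), whereas Sema4c (-0.61) did not keep its call. None of 24 Notch genes was called.

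Cyclic AMP, G protein and channel genes moved in both directions. Of 50 cyclic AMP genes, 3 rose and 3 fell. Adcy3, the adenylyl cyclase, had 518, 443, 552 and 325 under PTU and 938, 968, 1253 and 957 at 6 h (1.16 ± 0.16, adjusted p = 0.00124). The phosphodiesterase Pde8a rose from between 428 and 556 to between 967 and 1128 (1.01 ± 0.13, adjusted p = 0.000813), whereas Pde3a fell (-0.99 ± 0.18, adjusted p = 0.0072). The anchor protein Akap12 fell (-0.89 ± 0.18, adjusted p = 0.0133) and the factor Creb3l1 by -0.92 ± 0.19 (adjusted p = 0.0125). Of 34 G protein regulators, 5 rose and 3 fell, and 7 of the 8 kept their call. The receptor kinase Grk5 had 662, 576, 577 and 405 under PTU and 299, 273, 281 and 276 at 6 h (-0.98 ± 0.14, adjusted p = 0.00136), and Adrbk2, the older symbol of Grk3, rose from between 221 and 383 to between 548 and 616 (1.08 ± 0.21, adjusted p = 0.00932). The brakes on G protein signalling Rgs4 (1.07 ± 0.21, adjusted p = 0.0098) and Rgs7 (0.86 ± 0.16, adjusted p = 0.00604) rose, as did Gnao1 (0.89 ± 0.18, adjusted p = 0.0124). The calls of Pde3a, Creb3l1, Adrbk2 and Gnao1 did not hold with length as a covariate (adjusted p of 0.0665, 0.0615, 0.0722 and 0.0859).

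Of 58 ion channels and pumps, 6 rose and 2 fell. Trpv1, the capsaicin receptor, rose from between 29.8 and 59.9 to between 94.1 and 141 (1.64 ± 0.24, adjusted p = 0.00155), the calcium channel Cacna1c from between 56.6 and 77.8 to between 124 and 163 (1.03 ± 0.13, adjusted p = 0.000736) and the potassium channel Kcna1 from between 12.6 and 18.4 to between 25.7 and 57.8 (1.41 ± 0.27, adjusted p = 0.0095). These 3 stayed called with length as a covariate. Of 26 caveola and endocytosis genes, 1 rose and 3 fell. Prkcdbp, the older symbol of the caveola protein Cavin3, had 4628, 4828, 3002 and 3257 under PTU and 1774, 1606, 1789.6 and 1774 at 6 h (-1.18 ± 0.17, adjusted p = 0.00178). Ehd1 fell (-0.65 ± 0.14, adjusted p = 0.0146), Epn2 rose by 0.86 ± 0.12 (adjusted p = 0.00106), and Pacsin3 (-0.86) did not keep its call. For ion channels and pumps, the number called ran from 4 when 6 h replicate 1 was left out to 10 when PTU replicate 3 was left out. Exons of Adcy3 overlap Cenpo on the other strand.

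Stress and immune lists held scattered calls, to be read against the 7.23% of all genes tested. The shares called were 4.44% for NF-kB and cytokines, 5.66% for autophagy and 8.11% for complement and coagulation. They were larger for NRF2 (11.6%), interferon (14.8%) and glucocorticoid genes (17.4%). Of 54 interferon genes, 7 rose and 1 fell. Gbp3, an interferon-induced GTPase, had 267, 372, 330.3 and 389.8 under PTU and 995, 857, 861 and 1066 at 6 h (1.48 ± 0.15, adjusted p = 9.94e-05), and the antiviral Rsad2 went down from between 307 and 387 to between 169 and 192 (-0.93 ± 0.14, adjusted p = 0.00173). Irf1 (0.54 ± 0.11, adjusted p = 0.0143) and Irgm2 (0.50 ± 0.10, adjusted p = 0.00869) rose, calls that did not hold with length as a covariate (adjusted p of 0.0837 and 0.0705), and Irgm2 shares exons with Igtp. For interferon genes, the number called ran from 4 when 6 h replicate 2 was left out to 9 when PTU replicate 3 was left out. Of 43 genes of NRF2 and oxidative defence, Nfe2l2, for NRF2 itself, rose from between 1036 and 1341 to between 1501 and 1897 (0.61 ± 0.11, adjusted p = 0.00763), whereas the 4 other called genes fell. These were Gsta3 (-1.13), Gstm2 (-0.67), Mgst3 (-0.61) and Txn1 (-0.50), and only Nfe2l2 kept its call. The list had 37 negative changes (median -0.39, and -0.24 with length as a covariate), and the number called ran from 1 when 6 h replicate 3 was left out to 12 when PTU replicate 3 was left out. Bcl3, an NF-kB cofactor, rose from between 85.0 and 175 to between 268 and 279 (1.14 ± 0.17, adjusted p = 0.00186), and Myd88 (0.55, not kept) was the only other call among 45 NF-kB and cytokine genes. Trp53inp2, an autophagy protein and nuclear coactivator of TR, had 2494, 3171, 3587 and 2469 under PTU and 4567, 4289.9, 4395 and 5319.7 at 6 h (0.66 ± 0.13, adjusted p = 0.0104, and 0.0753 with length), and was the only 1 of 3 called autophagy genes of 53 to keep its call, the others being Atg4a (-0.41) and Atg12 (-0.40). Macrophage and dendritic markers summed to 10294 to 12795 under PTU and 7023 to 13985 at 6 h, with no call among 12 and 10 negative changes. B lymphocyte markers summed to 3881 to 10926 under PTU and 5732 to 11335 at 6 h, with no call among 10 and 9 positive changes. Of 11 T and NK lymphocyte markers, 10 had a positive change and none was called. The part of these cells in the stress and immune lists was not tested. All 3 called complement and coagulation genes of 37 fell, among them Serpine2 (-0.71) and Serpinf1 (-0.59), and all 4 called glucocorticoid genes of 23, Klf9, Nr3c1, Glul and the clock gene Per1 (1.38), rose. Of these 7, only Klf9 kept its call. In the cell cycle list, none of 52 tested genes was called, although 41 had a positive change (median 0.20).

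The lists on the clock and on brown and beige fat are given for context. Of 26 clock genes, 11 rose and 4 fell, and 13 of the 15 kept their call. Of 22 brown and beige fat genes, 5 rose, including Ppargc1a and Dio2, and Lhx8 fell. Ucp1 had 4.80, 20.4, 268 and 101 under PTU and 1641, 2441, 3941 and 3107 at 6 h, with PTU libraries that spread widely and lay below all 6 h libraries (4.80 ± 0.90, adjusted p = 0.00808).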

How the data were processed

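RNA-seq of whole WAT had been made from total RNA (Trizol extraction, Lexogen SENSE library kit, NextSeq 500). The authors deposited raw counts per gene symbol, from reads aligned to GRCm38 with Bowtie (the submitters' processing notes name Bowtie2 2.2.6.2 and mm10), cleared of low-quality alignments and counted with htseqcount. The annotation release and the strand setting are not given in the sources used here, so genes that overlap others are uncertain. In the count table, 86 rows copied another row (its counts lay within 2% in all WAT libraries, rows averaging under 100 not considered), so reads matching several genes appear at each.

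Gene names turned into dates by a spreadsheet (15 of 47643 rows, 0.0605% to 0.0825% of counts) were left out. Of 118 symbols found on several rows, the rows were kept apart. Counts were scaled by TMM factors, here 0.917 to 1.11, to normalised counts. The quasi-likelihood test of edgeR 4.0.16 in R 4.3.3 was fitted to 3 groups (PTU, 6 h and 24 h, 12 libraries) and the 6 h against PTU contrast taken over genes with a mean normalised count above 10, with Benjamini-Hochberg adjustment over all 17928. Adjusted p-values in the text are from this test, which was run first on simulated counts with known changes. Alternatives were RLE scaling, DESeq2 1.42.0, other count filters, the 2 groups alone, a replicate block, each library left out in turn, copied rows left out, marker sums of muscle or epithelium as a covariate and, added after seeing the data, PTU replicate 4 and 6 h replicate 3 left out together and the length slope as a covariate (exon lengths from GENCODE for GRCm38). Positions and exon overlaps are from the same annotation. Of the genes that kept their call, beyond those named beside the results, exons on the other strand also overlap those of Npc1, Gpd2, Slc1a1, Slc6a6, Prkag2, Pik3r2, Il6ra, Setd7, Kdm6b, Bcl3, Rrp1b, Nrg4, Fbn1, Fgfr1, Fst, Acvr1c, Acvr2a, Ahcyl2, Cebpg, Ptgs1, Pde3a, Gnao1, Irf1, Arntl and Arhgap20.

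The gene lists and members were chosen with earlier results of these data known. Named were the 12 largest rises and falls among called genes with a mean above 50 and groups that did not overlap, up to 6 called members per list and 4 per family by p, every gene of the hormone lists, and abundant members of lists without a call. Of the genes this rule gave, those described fully were picked after their values were seen, as were called members beyond 6 in a list. Libraries of the same group were compared by chi-square tests of their counts and none was a copy of another (14.6 to 95.2 per degree of freedom). The other tissue of the series and comparisons with 24 h were not used here, and some genes that the naming rule gave are not reported here.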

Additional observations from a re-analysis of the deposited data

Results flagged for a closer look

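In 39 of 548 groups of 4 values examined (7.12%, where chance gives about 1 in 20), the highest or lowest library lay further from the rest than Dixon's test allows. These 39 are each given with the value of the library that stood apart.

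In the PTU group, replicate 1 was highest for the lipogenic target Thrsp (78963, others 25794 to 32888), Rcl1 (319), the calcium pump Atp2a2 (3317) and Glul (21703). Replicate 2 was lowest for Esrrg (12.0) and highest for Fzd2 (92.2). Replicate 3 was highest for Acot11 (71.3) and lowest for Idh3a (4441) and Timm9 (242). Replicate 4 was highest for Slc25a33 (145), Hlf (103) and Rpsa (15627) and lowest for Npr1 (686) and Klb (775).

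At 6 h, replicate 1 was highest for Inhbb (286, others 169.99 to 177), Snhg5 (235), Irf1 (1530.1) and Mmp11 (80.5) and lowest for Nfe2l2 (1501), Setd7 (1745) and Ppargc1b (123). Replicate 2 was highest for Slc7a8 (194) and Pdp1 (142) and lowest for Trpv1 (94.1), Prkcdbp (1606), Insr (1933) and Mrps6 (519). Replicate 3 was highest for Nfil3 (93.2), Fst (94.2), Adcy3 (1253), Atp2a1 (10797), Gyg (1729) and Wnt9a (25.7).

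Among summed marker lists, PTU replicate 1 was highest for mesothelial (507, others 90.2 to 94.7) and for mammary and glandular epithelium markers (1127, others 54.1 to 57.7). At 6 h, replicate 3 was highest for skeletal muscle (109259, others 1173 to 12083), for mammary and glandular epithelium (554) and for epididymis and male tract markers (23.6), and replicate 2 was lowest for endothelial markers (12536).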

How the results depend on the processing

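Against 1296 calls (749 higher and 547 lower) and 239 called pathway members, DESeq2 gave 2145 (1150 and 995) and 388, the stratified epithelium covariate 677 (436 and 241) and 136, and the length covariate 512 (333 and 179) and 97. Leaving out PTU replicate 4 and 6 h replicate 3 together gave 676 (412 and 264) and 139. The 2 groups alone gave 834 calls, 274 of them lower. A log2 change beyond 1 left 365 calls, 210 higher and 155 lower. Leaving out 1 library gave 684 to 1898 calls (433 to 1081 higher, 222 to 817 lower) and 135 to 322 members, lowest without 6 h replicate 3 (members and higher) or PTU replicate 2 (lower) and highest without PTU replicate 1. Residual correlations of same-numbered pairs were -0.37, 0.32, -0.47 and -0.27, and those of other-numbered pairs -0.36 to 0.46. These values show no pairing of libraries by replicate number but are too few to exclude it. The replicate block gave 886 calls, 322 of them lower. RLE scaling (1322), no filter (1105), a mean above 50 (1338), copied rows left out (1246) and the muscle covariate (1233) stayed within 1.5 times the count. Of 224 called genes named in the text, none reversed under any alternative run; 223 stayed called with DESeq2, 168 with the block, 166 with the 2 groups alone, 141 with the epithelium covariate, 132 without both libraries and 105 with the length covariate, and 131 in all 12 fits leaving out 1 library. Fewer libraries enter some of these fits; the cause of the other losses was not tested. Depth of 17.3 to 26.96 M counts limits genes of few counts, such as Foxo6 under PTU, more than abundant ones.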
